A study of Xenopus laevis with 115 samples.

Results

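In Xenopus laevis embryos made by nuclear transfer (NT), 200 transcripts were higher in the ectoderm of A485-derived than of A486-derived embryos in 1 experiment and lower in another. They were selected on these same libraries, from 17523 XBmRNA targets that averaged at least 2 CPM (a target's count scaled to a common library total) over the 24 NT libraries, among 42420 XBmRNA targets and 44441 targets in all. For each target the mean log2(CPM + 0.5) of the A486 libraries was subtracted from that of the A485 libraries within each of 3 experiments. A transcript qualified with at least 1 difference above 0.7 and 1 below -0.7, which 262 did, and the 200 with the largest range of differences are described here as the reversing transcripts. The differences between A485 and A486 NT ectoderm are therefore given as a description, with no test.

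Poly(A) RNA of wild-type embryos was sequenced in 2 sets of libraries, each with 3 numbered experiments. In the A485 set, donor embryos were raised in 30 µM A485 or with A486 from gastrula to neurula (stage 18), their endoderm was dissected, and its nuclei were transferred to eggs. The NT animal cap ectoderm was taken at stage 11. A485 NT ectoderm has 3, 5 and 3 libraries in experiments 1, 2 and 3, and A486 NT ectoderm has 5, 5 and 3. Donor endoderm has 2 A485 and 2 A486 libraries in each experiment, and ectoderm of fertilised (IVF) embryos at stage 11 has 4 libraries used here, all of experiment 1. The labels name A486 only in the names of samples and give it no dose, and the protocol names DMSO as the control. The CBP30 set has the same layout with donors raised in 40 µM SGC-CBP30 or in dimethyl sulfoxide (DMSO), namely 11 CBP30 NT, 12 DMSO NT, 11 IVF ectoderm, 5 CBP30 donor and 6 DMSO donor libraries. The inhibitors were applied to the donors, and the eggs and NT embryos were not described as treated.

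As background, p300 and its close relative CBP are acetyltransferases that mark active enhancers and promoters by acetylating histones, and their bromodomain binds acetylated lysine. A485 blocks the catalytic site, SGC-CBP30 binds the bromodomain, and A-486 is a close chemical relative of A485 sold as an inactive control. After nuclear transfer the egg resets most of the donor programme, but part of the donor tissue's expression persists in the new embryo, and part of the programme of the new tissue is not fully switched on. Endoderm genes in NT ectoderm are the standard readout of such memory. The deposited files name targets only by identifier, and none matched the gene table used here, so no gene name or function is given. The X. laevis genome carries pairs of near-identical gene copies, between which pseudoalignment may divide reads, so each level is that of the listed target only. XBmRNA60606 and XBmRNA60313, both reversing transcripts, had equal target lengths, median levels and donor differences. They are counted separately here and may not be independent entries.

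Totals were 6468976 to 24820727 estimated counts in the A485 set and 10352221 to 24923622 in the CBP30 set. No 2 libraries of a group held identical values. Nothing in the labels says whether the libraries of a group came from separate embryos or clutches, so every p-value below measures the spread between these libraries. In experiment 3, 1 A485 NT library carries an endoderm tissue field and 1 A485 donor library an ectoderm one, and the 4 donor libraries of experiment 1 carry ectoderm as cell type. The titles were followed. Because marker genes could not be matched by name, the summed levels of 879 targets higher in A486 donor endoderm than in IVF ectoderm with a log2 fold change of 5 or more (endoderm-high) and of 392 targets with the opposite difference (ectoderm-high) stand in for them, with the 17 and 29 reversing transcripts among them left out of the sums. The endoderm-high sum was 108593 to 144022 CPM in the 12 donor libraries and 1282 to 1568 CPM in IVF ectoderm. Library 2 of A485 NT ectoderm in experiment 1 stood apart, with an ectoderm-high sum of 4446 CPM. At 2724 CPM, it had the highest endoderm-high sum among the NT libraries of that experiment. The other 7 NT libraries of experiment 1 had 7910 to 11360 CPM of the ectoderm-high set. Library 1 of A486 donor endoderm in experiment 3 had 4023 CPM of the ectoderm-high set, against 146 to 346 CPM in the other 11 donor libraries.

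The reversals involved every pair of experiments. Of the 200 transcripts, 58 had their highest difference in experiment 3 and lowest in experiment 1, and 53 had the highest in experiment 1 and the lowest in experiment 2. A further 35 were highest in experiment 3 and lowest in experiment 2, 28 highest in 2 and lowest in 1, 13 highest in 1 and lowest in 3, and 13 highest in 2 and lowest in 3. Experiments 1 and 2 opposed each other past both thresholds for 94 transcripts, experiments 1 and 3 for 84, and experiments 2 and 3 for 70. Experiments 1 and 3, in contrast, moved 25 transcripts past the threshold in the same direction, experiments 1 and 2 moved 13, and experiments 2 and 3 moved 10.

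**Figure D1:**
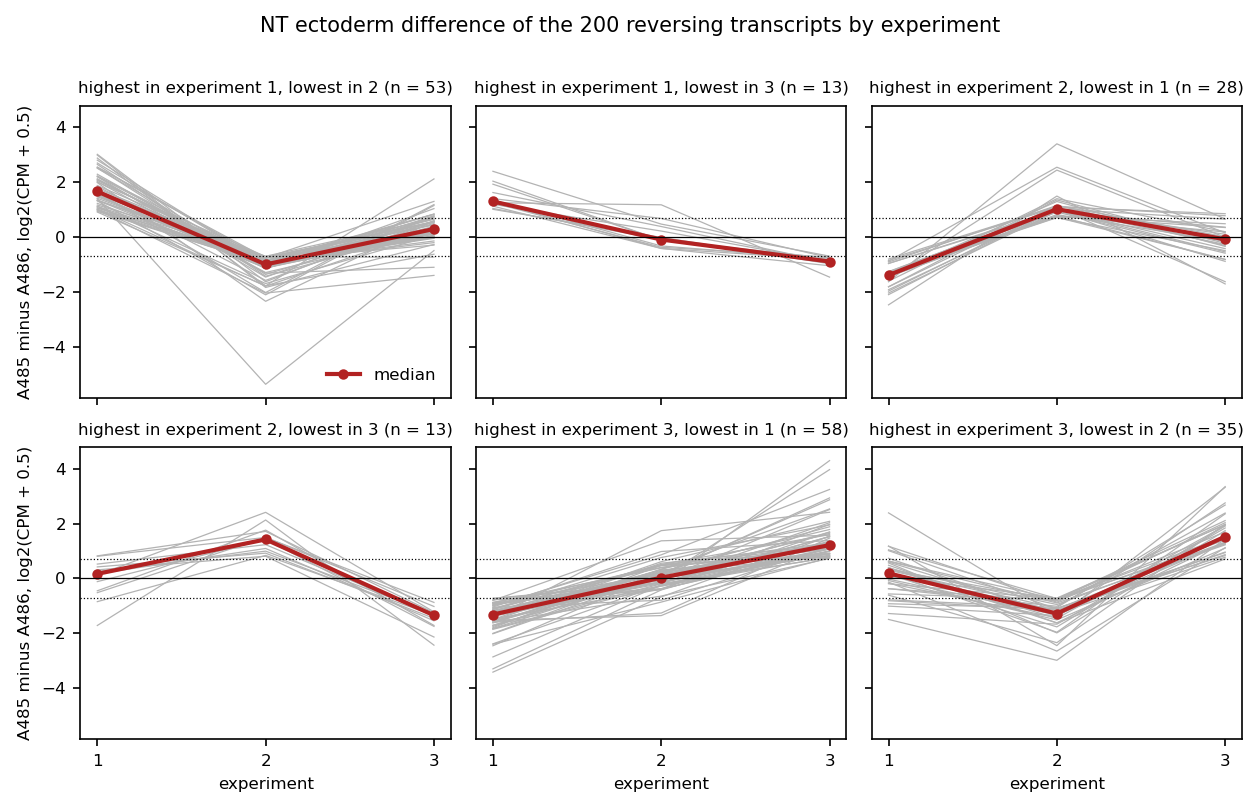
Difference A485 minus A486 in NT ectoderm, in log2(CPM + 0.5), for each of the 200 reversing transcripts (grey lines) in experiments 1 to 3 on the horizontal axis, with the median (red) and the thresholds of 0.7 and -0.7 (dotted). In the largest panel, of 58 transcripts, the median line runs between -1.32 in experiment 1 and 1.22 in experiment 3 and lies at 0.03 in experiment 2.

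The direction was unevenly spread. In experiment 1, 74 of the transcripts were above A486 by more than 0.7 and 94 were below by as much. Experiment 2 had 47 above and 92 below, and experiment 3 had 107 above and 34 below. Of the eligible targets, 2205 were above and 609 below in experiment 1, 226 above and 223 below in experiment 2, and 482 above and 202 below in experiment 3. The median difference of all 17523 eligible targets was 0.22 in experiment 1, -0.01 in experiment 2 and -0.02 in experiment 3. With TMM library sizes these medians were 0.04, -0.01 and -0.00, and 180 of the 200 transcripts remained among the 200 chosen. The ranges ran between 1.89 and 6.77 log2 units with a median of 2.71, against a median of 0.47 for eligible targets. At the edge, XBmRNA66306 and XBmRNA63681 entered with ranges of 1.90 and 1.89, and XBmRNA74070 and XBmRNA74178 were left out with 1.88 and 1.87.

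Some reversing transcripts switched between near 0 and a clear level from group to group. XBmRNA79115 had the largest range. It measured 42.5, 26.9 and 41.9 CPM in A485 NT ectoderm of experiment 1, against 16.7, 4.03, 26.2, 43.4 and 5.4 CPM in A486. In experiment 2 it measured 0.0846, 0.00, 0.292, 0.0725 and 0.0700 CPM in A485 NT ectoderm, against 25.9, 37.3, 13.9, 15.0 and 41.7 CPM in A486. All 6 NT libraries of experiment 3 lay at or below 0.507 CPM. The groups overlapped in experiment 1 and were far apart in experiment 2, and the differences were 1.40, -5.38 and -0.50 in experiments 1, 2 and 3. The 4 IVF libraries lay at or below 0.147 CPM, and donor endoderm reached 3.37 CPM in A485 and 2.61 CPM in A486, both in experiment 2.

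XBmRNA48721 was likewise near 0 in some groups and clearly detected in others. A485 NT ectoderm of experiment 3 had 8.50, 11.6 and 7.49 CPM, against 0.0523, 0.246 and 0.0454 CPM in A486. In experiment 1 the order was the other way, with 7.27, 4.22 and 7.33 CPM in A485, against 15.6, 19.9, 22.4, 18.9 and 20.9 CPM in A486. The 10 libraries of experiment 2 did not exceed 0.145 CPM. The groups did not overlap in experiments 1 and 3, with differences of -1.59 and 3.97. The donors of experiment 3, which the choice did not use, had 9.57 and 9.22 CPM in A485, against 0.811 and 0.0819 CPM in A486 endoderm, in the direction of the NT ectoderm. Those of experiment 1 had 3.70 and 3.54 CPM in A485, against 2.55 and 2.54 CPM in A486, so the donors did not repeat the reversal. Within a single untreated group it also split, at 0.0736, 4.70, 0.0703 and 8.88 CPM in the 4 IVF libraries.

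**Figure D2:**
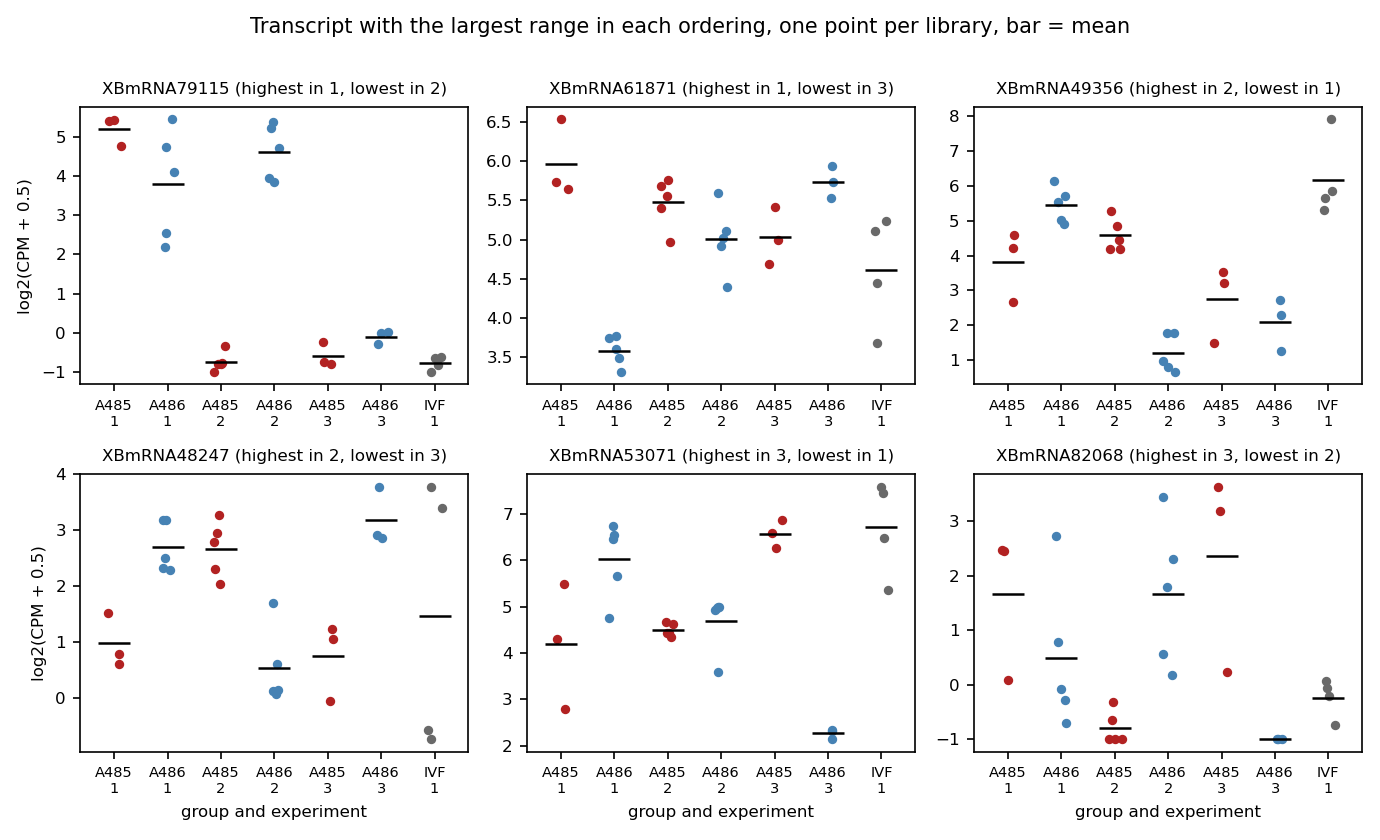
Level of the transcript with the largest range in each of the 6 orderings, in log2(CPM + 0.5), with 1 point per library and a bar at each group's mean; A485 (red) stands left of A486 (blue) within each experiment, and the 4 IVF ectoderm libraries (grey) of experiment 1 are at the right. In experiment 2 XBmRNA79115 lies at or below 0.292 CPM in A485 and between 13.9 and 41.7 CPM in A486.

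Among transcripts highest in experiment 2 and lowest in experiment 1, XBmRNA49356 had 18.0, 5.90 and 23.9 CPM in A485, against 32.3, 46.1, 69.8, 29.7 and 51.5 CPM in A486 NT ectoderm of experiment 1. In experiment 2 it had 17.9, 38.7, 17.8, 28.3 and 21.1 CPM in A485, against 1.08, 1.45, 1.23, 2.92 and 2.95 CPM in A486. The groups did not overlap in either experiment. The A485 levels of the 2 experiments overlapped, and those of A486 did not. XBmRNA76351 showed the same, at 1.05 to 1.65 CPM in A485 and 7.21 to 12.5 CPM in A486 in experiment 1, and at 1.01 to 4.02 CPM in A485 and 0.155 to 0.942 CPM in A486 in experiment 2. XBmRNA2648 had 2.01 to 3.76 CPM in A485 and 6.86 to 10.4 CPM in A486 in experiment 1, and 2.17 to 5.59 CPM in A485 and 0.00 to 0.624 CPM in A486 in experiment 2. XBmRNA41764 completes the 4 named in this ordering, with a range of 3.43 and no overlap between A485 and A486 in experiments 1 and 2. Over all 200 reversing transcripts, the highest minus the lowest experiment mean had a median of 2.18 log2 units in A485 and 1.86 in A486 NT ectoderm. Among eligible targets these medians were 0.57 and 0.53. The rule used these group means, so nothing is read from the excess.

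Donor endoderm of experiment 2 had the direction of the NT ectoderm for XBmRNA76351 and XBmRNA2648, and the opposite one for the other 2 of these 4. XBmRNA76351 had 10.0 and 12.1 CPM in A485 donors and 0.268 and 0.00 CPM in A486 donors. XBmRNA2648 had 6.50 and 4.75 CPM in A485 donors and 0.586 and 0.389 CPM in A486 donors. For XBmRNA41764 the donor difference was -2.79, with 0.205 and 0.409 CPM in A485 donors and 40.1 and 0.257 CPM in A486 donors, so that 1 A486 library set it. In experiment 1 its donor difference was 2.76, also opposite to the NT ectoderm. That of XBmRNA49356 in experiment 1 was 0.43, opposite as well. For XBmRNA76351 and XBmRNA2648 the donor differences of experiment 1 were -0.86 and -0.20, in the direction of the NT ectoderm. In experiment 3 that of XBmRNA76351 was 0.09, opposite to its NT ectoderm. XBmRNA49356 had a donor difference of -0.42 in experiment 2, and its A485 and A486 donors overlapped. XBmRNA23489, highest in experiment 1 and lowest in experiment 2, was also opposite in donors and NT ectoderm of experiment 2. In experiment 1 it had the same direction in both, at 1.90 in donors and 2.99 in NT ectoderm. It had 4.15 and 5.70 CPM in A485 donors and 0.201 and 0.103 CPM in A486 donors of experiment 2. In NT ectoderm of that experiment it had 2.17, 1.02, 1.46, 0.963 and 0.872 CPM in A485, against 4.64, 6.72, 4.27, 7.58 and 6.17 CPM in A486.

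The 4 largest ranges among transcripts highest in experiment 2 and lowest in experiment 3 were those of XBmRNA48247, XBmRNA81531, XBmRNA56629 and XBmRNA48933, whose A485 and A486 libraries did not overlap in either. XBmRNA48247 had 9.18, 6.38, 7.24, 3.63 and 4.47 CPM in A485, against 0.562, 0.602, 0.612, 1.03 and 2.75 CPM in A486 NT ectoderm of experiment 2. In experiment 3 it had 1.58, 0.473 and 1.85 CPM in A485, against 13.2, 6.75 and 7.04 CPM in A486. Experiment 1 resembled experiment 3, with 1.04 to 2.38 CPM in A485 and 4.40 to 8.62 CPM in A486. Its donor differences were -1.13, 1.21 and -2.58 in experiments 1, 2 and 3, with the sign of the NT ectoderm in each. The 4 IVF libraries split into 9.98 and 13.1 CPM and 0.105 and 0.181 CPM. XBmRNA81531 had 6.0 to 10.1 CPM in A485 and 0.513 to 1.66 CPM in A486 in experiment 2. In experiment 3 it had 4.46 to 5.81 CPM in A485 and 9.84 to 15.2 CPM in A486. Its donor differences, 1.71, 0.60 and -1.65, also had the sign of the NT ectoderm in each experiment. Those of XBmRNA56629 (0.63, -0.48 and 0.07) were opposite to the NT ectoderm in each experiment. Those of XBmRNA48933 (-1.07, -0.18 and -0.72) were opposite in experiment 2 only.

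Of those highest in experiment 1 and lowest in experiment 3, XBmRNA61871, XBmRNA66894, XBmRNA49712 and XBmRNA572 had ranges of 2.71 to 3.10. XBmRNA61871 had 52.6, 49.7 and 92.5 CPM in A485, against 12.9, 11.6, 10.6, 13.1 and 9.40 CPM in A486 of experiment 1. In experiment 3 it had 42.2, 31.5 and 25.2 CPM in A485, against 52.8, 45.6 and 60.9 CPM in A486. Its experiment 3 difference of -0.70 only just passed the threshold, and it failed the rule when any of 3 single libraries was left out. XBmRNA572 had 4.82 to 16.8 CPM in A485 and 1.72 to 2.42 CPM in A486 in experiment 1. In experiment 3 it had 0.454 to 1.48 CPM in A485 and 1.69 to 2.15 CPM in A486. Its donor differences were 1.635, -0.17 and -0.78 in experiments 1, 2 and 3, with the sign of the NT ectoderm in each. In experiments 1 and 3 those of XBmRNA61871 (-0.16 and 0.57), XBmRNA66894 (0.47 and 0.73) and XBmRNA49712 (-0.59 and -0.52) did not repeat the reversal.

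In the ordering with its highest difference in experiment 3 and lowest in experiment 1, XBmRNA53071 had 95.8, 76.6 and 115 CPM in A485, against 3.92, 4.55 and 4.51 CPM in A486 NT ectoderm of experiment 3. In experiment 1 it had 19.3, 6.44 and 44.1 CPM in A485, against 26.6, 86.7, 106, 50.1 and 92.6 CPM in A486. The groups overlapped in experiment 1 and were well apart in experiment 3. It was more abundant in donor endoderm, where 10 of 12 libraries had 284 to 1121 CPM and library 2 of each treatment in experiment 3 lay lower, at 18.2 CPM in A485 donors and 21.4 CPM in A486 donors. Its donor differences were 0.94, 0.29 and 0.31 in experiments 1, 2 and 3. They were opposite to the NT ectoderm in experiments 1 and 2 and had its sign in experiment 3. In the same ordering XBmRNA60069 and XBmRNA60660 scattered widely within groups. XBmRNA60069 had 1.02, 0.248 and 8.51 CPM in A485, against 8.28, 26.1, 102, 4.49 and 55.8 CPM in A486 of experiment 1. In experiment 3 it had 43.5, 36.4 and 31.5 CPM in A485, against 2.20, 13.8 and 53.4 CPM in A486, so the groups overlapped in both. It had 894 CPM in A486 donor library 1 of experiment 3, the library high in the ectoderm-high set, and at most 7.74 CPM in the other donors.

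Transcripts highest in experiment 3 and lowest in experiment 2 were led by XBmRNA82068. It had 11.9, 0.680 and 8.59 CPM in A485 of experiment 3, and all 3 A486 libraries were at 0. Against 3 counts per library, the A485 mean was at least 52.1-fold higher. In experiment 2 it had 0.00, 0.00, 0.00, 0.297 and 0.140 CPM in A485, against 4.45, 10.4, 0.633, 0.975 and 2.95 CPM in A486. XBmRNA46551 showed a tighter version of the same ordering. It had 3.78, 2.03 and 3.74 CPM in A485, against 0.366, 0.288 and 0.592 CPM in A486 of experiment 3. In experiment 2 it had 0.00 to 0.256 CPM in A485 and 2.01 to 3.12 CPM in A486. XBmRNA82004 had differences of -2.99 in experiment 2 and 1.44 in experiment 3, and XBmRNA41968 of -1.43 and 3.33.

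The reversing transcripts had larger SDs than eligible targets among libraries of the same group that the choice did not use, with a median SD of 0.87 log2 units against 0.27 over the 4 IVF libraries. Over the 6 A486 donor libraries, which come from 3 experiments and include the library high in the ectoderm-high set, it was 0.86 against 0.42. Within NT groups it was 0.75 against 0.25, in the libraries on which the transcripts were chosen, so nothing is read from it. The transcripts were somewhat less abundant, with a median of 10.4 CPM against 18.8 CPM. Within the inner quartiles of their own abundance, the median SD over IVF libraries was 0.86 for 100 reversing transcripts and 0.30 for 7264 eligible targets. The IVF libraries spanned at least 3 log2 units for 30 of the 200 transcripts, or 15.0%, against 1.37% of eligible targets. Without IVF library 1, which had 46651 CPM of the ectoderm-high set against 16803 to 18603 CPM in the other 3, this number was 7, against 0.223% of eligible targets.

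Clear separation of A485 and A486 in opposite directions was a property of a minority. The A485 and A486 NT libraries did not overlap for 53 reversing transcripts in experiment 1 (23.5% of eligible targets), 38 in experiment 2 (1.77%) and 83 in experiment 3 (12.4%). For 47 of the 200 they did not overlap in opposite directions in 2 experiments, which was so for 1.51% of eligible targets, and since the rule used these values nothing is read from the excess. Of all 200, 47 failed without exactly 1 particular library and 74 failed without any of several. Leaving out A486 library 1 of experiment 3 lost 38 transcripts, and leaving out A485 library 2 of experiment 1, the NT library with the lowest ectoderm-high sum, lost 30.

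**Figure D3:**
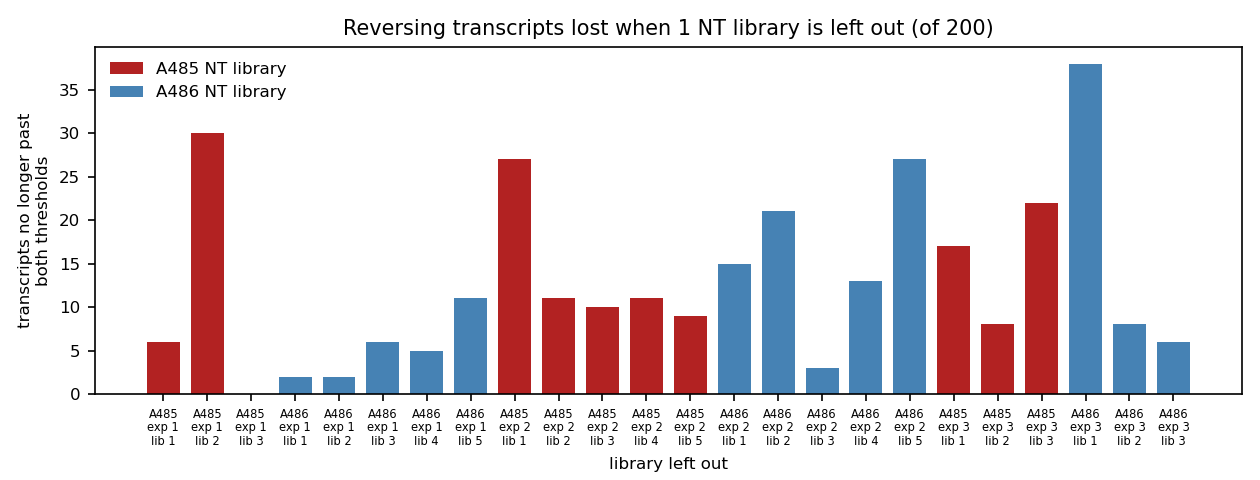
Number of the 200 reversing transcripts that no longer passed both thresholds when the library on the horizontal axis was left out, with bars in red for A485 and blue for A486 NT libraries, grouped by experiment. The tallest bars are 38 for A486 library 1 of experiment 3 and 30 for A485 library 2 of experiment 1, and A485 library 3 of experiment 1 has 0.

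An example of this scatter is XBmRNA46486, highest in experiment 1 and lowest in experiment 2. It had 1.99, 47.2 and 4.04 CPM in A485, against 0.283, 0.267, 0.331, 4.01 and 0.238 CPM in A486 NT ectoderm of experiment 1. In experiment 2 it had 0.169, 1.12, 1.96, 4.53 and 2.71 CPM in A485, against 6.80, 14.8, 0.507, 4.07 and 40.5 CPM in A486. The groups overlapped in both experiments, and the high library in experiment 1 is the A485 library 2 that stands apart. The donor differences of XBmRNA46486 were -0.82, 0.30 and -0.57 in experiments 1, 2 and 3, opposite to the NT ectoderm in each. XBmRNA46487, with the next gene number, had its maxima of 73.7 and 73.9 CPM in the same 2 libraries, A485 library 2 of experiment 1 and A486 library 5 of experiment 2.

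Neighbouring gene numbers recurred among the reversing transcripts. Joining numbers at most 10 apart gave 19 runs holding 53 transcripts, and 5 runs of at least 4 held 25. Whether the numbering follows the chromosomes is not given in the sources used here. Of the 8 eligible targets between XBXL10_1g34804 and XBXL10_1g34823, 7 were reversing transcripts, and 5 of the 7 were highest in experiment 3 and lowest in experiment 1. Their median level was 8.79 log2 units in IVF ectoderm and 1.15 in A486 donor endoderm. A second run of 6 transcripts, XBXL10_1g34994 to XBXL10_1g35014, held 6 of 15 eligible targets, with 5 of that ordering and 9.35 log2 units in IVF ectoderm. A further 2 runs of 4, from XBXL10_1g22687 to XBXL10_1g22693 and from XBXL10_1g22783 to XBXL10_1g22798, held 4 of 7 and 4 of 13 eligible targets. All 4 eligible targets between XBXL10_1g24920 and XBXL10_1g24924, XBmRNA46486 and XBmRNA46487 among them, were highest in experiment 1 and lowest in experiment 2, and were low in IVF ectoderm at 0.19 log2 units.

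Per length, XBmRNA66127 and XBmRNA66118, both in the run from XBXL10_1g34994 to XBXL10_1g35014, were the most abundant reversing transcripts in IVF ectoderm. By the deposited TPM, which correct for target length, XBmRNA66127 had a median of 1626 TPM in IVF ectoderm, against 14.8 TPM in A486 donor endoderm, and XBmRNA66118 had 1248 TPM, against 21.7 TPM in the donors. At the other extreme XBmRNA52457 had 810 TPM in A486 donor endoderm and 0.526 TPM in IVF ectoderm. The median reversing transcript had 1.58 TPM in A486 donor endoderm and 5.66 TPM in IVF ectoderm, and the median eligible target had 7.55 TPM and 12.7 TPM in those tissues. Of the 200, 18 were below 1 CPM in all 6 A486 donor libraries and 12 in all 4 IVF libraries.

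A486 donor endoderm and IVF ectoderm of experiment 1 were compared in libraries that the choice did not use. Of the 200 transcripts, 40 were called higher in donor endoderm and 68 lower at an adjusted p under 0.05 by edgeR's quasi-likelihood test, 85 were not called and 7 failed the filter on low counts. Among all targets tested, 24.6% were higher in donor endoderm and 23.4% lower. Since bulk RNA was measured, fewer cells of a type and less RNA per cell cannot be told apart. The smallest adjusted p-values belonged to XBmRNA52293 and XBmRNA52923. XBmRNA52293 had 535 and 639 CPM in donor endoderm and 0.368, 0.723, 0.703 and 0.528 CPM in IVF ectoderm, with a log2 fold change of 10.56 ± 0.26 (SE) and an edgeR adjusted p of 2.9e-06. XBmRNA52923 had 80.3 and 129 CPM in donor endoderm and 0.181 to 0.469 CPM in IVF ectoderm (log2 fold change 9.06 ± 0.36, SE, edgeR adjusted p = 9.86e-06). Donor and IVF libraries did not overlap for either transcript.

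The transcripts called in either tissue were then counted by ordering. Among the 53 transcripts highest in experiment 1 and lowest in experiment 2, 21 were higher in donor endoderm and 4 were lower. Among the 58 highest in experiment 3 and lowest in experiment 1, 6 were higher in donor endoderm and 33 were lower. For the 28 highest in experiment 2 and lowest in experiment 1, the numbers were 2 higher and 12 lower. The 35 highest in experiment 3 and lowest in experiment 2 were closer to balanced, with 8 higher and 12 lower. Of the 13 highest in experiment 1 and lowest in experiment 3, 3 were higher and 4 lower. Of the 13 highest in experiment 2 and lowest in experiment 3, 0 were higher and 3 lower. Seen by experiment, the 74 transcripts above A486 by more than 0.7 in NT ectoderm of experiment 1 included 29 higher and 9 lower in donor endoderm, and the 94 below by as much included 10 higher and 48 lower. In experiment 2 the 47 above included 3 higher and 19 lower, and the 92 below 31 higher and 17 lower. In experiment 3 the 107 above included 20 higher and 45 lower, and the 34 below 5 higher and 9 lower. These counts describe the chosen transcripts and were not tested. Among all targets tested, 24.6% were higher in donor endoderm and 23.4% lower. Eligible targets were not counted by ordering or direction, so the split is not read as particular to the reversing transcripts.

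**Figure D4:**
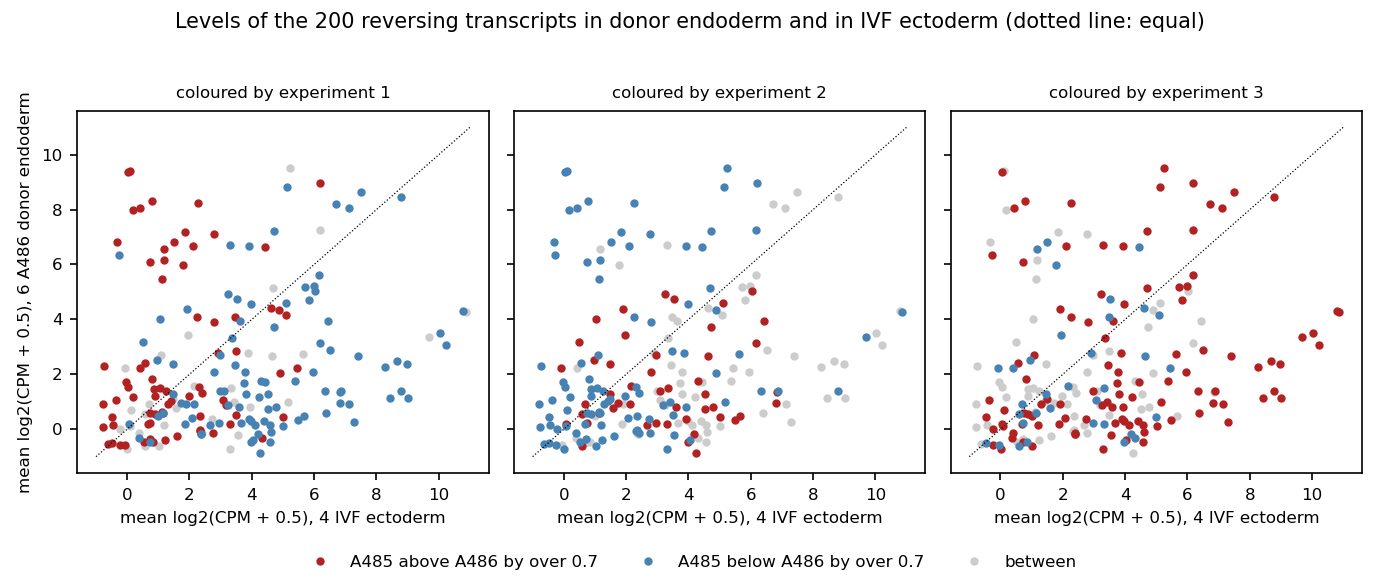
Mean level of the 200 reversing transcripts in the 6 A486 donor endoderm libraries (vertical) against the 4 IVF ectoderm libraries (horizontal), in log2(CPM + 0.5), drawn once for each experiment and coloured by the difference A485 minus A486 in its NT ectoderm. In experiment 1 the 94 transcripts below -0.7 (blue) have a median of 1.40 in donor endoderm and 4.28 in IVF ectoderm, and the 74 above 0.7 (red) have medians of 1.43 and 1.17.

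The summed tissue sets of the same NT libraries are given beside these counts. In experiment 1 the endoderm-high sum was 1821 to 2724 CPM in the 3 A485 and 1228 to 1770 CPM in the 5 A486 NT libraries. The TMM factors of these libraries were 1.02 to 1.17 in A485 and 0.90 to 1.02 in A486. The sums were not recomputed with them, so nothing is read from the gap between the groups. The ectoderm-high sum was 4446 to 9649 CPM in A485 and 7910 to 11360 CPM in A486. In experiment 2 the endoderm-high sum was 1892 to 2696 CPM in A485 and 1799 to 2560 CPM in A486, and in experiment 3 it was 2599 to 4902 CPM in A485 and 2195 to 3760 CPM in A486. The ectoderm-high sums of A485 and A486 overlapped there, at 6121 to 8580 CPM in A485 and 6147 to 9280 CPM in A486 of experiment 2, and at 8053 to 9197 CPM in A485 and 7485 to 9310 CPM in A486 of experiment 3. The part of these sums in the reversals was not tested. XBmRNA52293, at 399 to 1010 CPM in all 12 donor libraries, had 1.14, 23.7 and 4.02 CPM in A485, against 0.778, 0.467, 0.221, 3.93 and 0.476 CPM in A486 NT ectoderm of experiment 1, with the maximum again in A485 library 2.

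In experiment 1, where NT and IVF ectoderm can be compared within the A485 set, the A486 mean lay nearer to the IVF mean than the A485 mean did for 150 of the 200 transcripts, or 75%. This was so for 59.1% of eligible targets. The median distance of the reversing transcripts to IVF ectoderm was 1.88 log2 units for A485 and 1.04 for A486. The rule used the A485 and A486 values, so these distances are a description.

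No A485 effect common to the 3 experiments was called in donor endoderm. The main fit did not include the experiment. In it no reversing transcript and no other target was called between A485 and A486 donors, with 0.0% of 20220 targets at an edgeR adjusted p under 0.05. At an unadjusted p under 0.05 there were 14 of 152 reversing transcripts tested and 787 targets in all, and DESeq2 called 0 reversing transcripts. With the experiment as a block, edgeR also called 0 reversing transcripts, and the calls among all targets are not given here. The test of whether the A485 effect differed between experiments called 0 of 182 reversing transcripts and 0.0% of 23195 targets by edgeR, with 21 and 1689 at an unadjusted p under 0.05. DESeq2 called 1, and edgeR called 5 without A486 donor library 2 of experiment 3, which leaves library 1, high in the ectoderm-high set, alone in its group. The shares of all targets under these settings are not given here. Each group of this test held 2 libraries, and a test that calls none does not show that the effects were alike. On simulated counts the test recovered 6 of 200 targets changed 4-fold, or 3.0%, so its lack of calls says little about reversals in the donors.

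As values without a test, 21 of the 200 transcripts, or 10.5%, had a donor difference above 0.7 in 1 experiment and below -0.7 in another, against 1.89% of eligible targets. Without A486 donor library 2 of experiment 1 there were 33, against 2.61% of eligible targets. The reversing transcripts had larger SDs over the A486 donor libraries, and the part of this spread in the share was not tested. Nothing is therefore read from the 10.5% against 1.89%. Donor and NT differences of the same experiment had the same sign for 86 of the 168 transcripts past the threshold in experiment 1, for 78 of 139 in experiment 2 and for 52 of 141 in experiment 3. These are 51.2%, 56.1% and 36.9% in experiments 1, 2 and 3, against 36.7%, 53.9% and 44.7% of the eligible targets past the threshold. The share was thus above the background in experiment 1, near it in experiment 2 and below it in experiment 3. The eligible targets past the threshold in NT ectoderm of experiment 1 lay mostly above A486, with 2205 above and 609 below. The donor differences of experiment 3 include A486 donor library 1, which was high in the ectoderm-high set. The part of either in these shares was not tested. Levels in donor endoderm were also compared between experiments, in a fit that included treatment. They differed for 44 of 182 reversing transcripts tested (24.2%) at an edgeR adjusted p under 0.05, against 27.5% of all targets. The share of all targets is not given here for the fits with 1 library left out. The number was 28 without A485 donor library 2 of experiment 2 and 26 without A486 donor library 1 of experiment 2. XBmRNA13279 led them (edgeR adjusted p = 0.00143), with 1.84 and 2.70 CPM in A485, against 1.58 and 1.07 CPM in A486 donors of experiment 1. It had 9.64 and 11.9 CPM in A485, against 10.4 and 11.1 CPM in A486 donors of experiment 3, well above all 4 of experiment 1. XBmRNA5664 (edgeR adjusted p = 0.00192) was lowest in the donors of experiment 1, at 73.9 and 101 CPM in A485, against 36.5 and 48.9 CPM in A486, and highest in experiment 2, at 207 and 978 CPM in A485, against 474 and 652 CPM in A486.

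The CBP30 set was examined for the same transcripts with another inhibitor and other embryos. Of the 200 identifiers, 190 were in its table, 40 with the same target length, so the matched sequences may differ. Of 123 that averaged at least 2 CPM there, 26 (21.1%) had a CBP30 minus DMSO difference above 0.7 in 1 experiment and below -0.7 in another, against 1.37% of 19639 eligible targets. Leaving out single NT libraries gave 12 to 40. There were 12 without CBP30 library 1 of experiment 3 (0.962% of eligible targets) and 15 without DMSO library 5 of experiment 3 (1.13%). Without CBP30 library 3 of experiment 3 there were 40 (2.02%). The reversing transcripts had larger SDs between libraries of a group in the A485 set, and their SDs in the CBP30 set are not given here. The part of such spread in this share was not tested. Nothing is therefore read from the 21.1% against 1.37%.

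In the test of whether the CBP30 effect differed between experiments, 2 of 152 reversing transcripts were called by edgeR (1.32%), against 0.25% of all targets. DESeq2 called 6, and leaving out single libraries gave 1 to 5, with the shares of all targets under these settings not given here. On simulated counts the edgeR test recovered 46.5% of 200 targets changed 4-fold. XBmRNA46350 had 1.26, 0.857 and 1.2 CPM in CBP30 and 9.81, 6.57, 6.33 and 4.76 CPM in DMSO NT ectoderm of experiment 1. In experiment 2 it had 1.42, 2.08, 2.17, 0.706 and 2.83 CPM in CBP30 and 10.5, 15.6 and 15.3 CPM in DMSO. In experiment 3 it had 1.75, 0.993 and 1.61 CPM in CBP30 and 1.25, 0.561, 1.06, 1.23 and 1.47 CPM in DMSO. It was lower in CBP30 without overlap in experiments 1 and 2 and overlapped in experiment 3, with differences of -2.16, -2.67 and 0.28 (edgeR adjusted p = 0.00371). XBmRNA81531 had 1.89, 1.54 and 2.40 CPM in CBP30 and 5.73, 5.96, 6.99, 8.46 and 9.34 CPM in DMSO NT ectoderm of experiment 3. It had 5.28, 7.13 and 6.77 CPM in CBP30 and 6.80, 5.5, 5.62 and 5.51 CPM in DMSO of experiment 1. The groups were apart in experiment 3 and overlapped in experiments 1 and 2, with differences of 0.11, 0.54 and -1.67 (edgeR adjusted p = 0.00884), and the call was lost without CBP30 library 2 of experiment 3 (edgeR adjusted p = 0.0626).

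Ectoderm with neither nuclear transfer nor inhibitor also differed between experiments. In IVF ectoderm of the CBP30 set, 65 of 152 reversing transcripts tested (42.8%) differed between the 3 experiments by edgeR, against 35.8% of all targets, and 48.0% against 47.2% did so at an unadjusted p under 0.05. XBmRNA79115 had 40.5, 7.71 and 19.5 CPM in IVF ectoderm of experiment 2, at most 0.0588 CPM in experiment 1 and at most 0.519 CPM in experiment 3 (edgeR adjusted p = 6.66e-06). All 23 NT libraries of that set were at or below 0.374 CPM. XBmRNA572 had 85.3, 71.9, 86.0 and 90.4 CPM in IVF ectoderm of experiment 3, against 5.11 to 11.0 CPM in experiment 1 and 1.65 to 4.85 CPM in experiment 2 (edgeR adjusted p = 4.24e-06). Its NT libraries followed the experiment, at 65.6 to 78.9 CPM in CBP30 and 56.7 to 70.5 CPM in DMSO of experiment 3, and at no more than 13.0 CPM in CBP30 and 14.3 CPM in DMSO of experiments 1 and 2.

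DMSO NT ectoderm was set against IVF ectoderm over the 3 experiments of the CBP30 set. The main fit left out the experiment, so its p-values ignore the pairing by experiment number. Of 143 reversing transcripts tested, 21 were called higher in NT and 15 lower by edgeR, and among all targets 12.6% were higher and 10.1% lower. In either direction this was 25.2% of the reversing transcripts and 22.8% of all targets. With an absolute log2 fold change of 1 or more as well, 34 of the 143 (23.8%) and 4.98% of all targets were called. The reversing transcripts had larger SDs between libraries of a group in the A485 set. The part of such spread in this second difference was not tested, and nothing is read from it. XBmRNA50242 had 55.9 to 174 CPM in the 12 DMSO NT libraries and 24 to 56.3 CPM in the 11 IVF libraries (log2 fold change 1.16 ± 0.16, SE, edgeR adjusted p = 4.67e-05), and the groups overlapped only slightly. XBmRNA24927 had 5.61 to 239 CPM in DMSO NT and 0.962 to 3.55 CPM in IVF ectoderm, with no overlap (log2 fold change 3.72 ± 0.63, SE, edgeR adjusted p = 0.000281). Its wide NT range came from experiment 2, where the highest library had 239 CPM and the lowest 14.3 CPM.

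**Figure D5:**
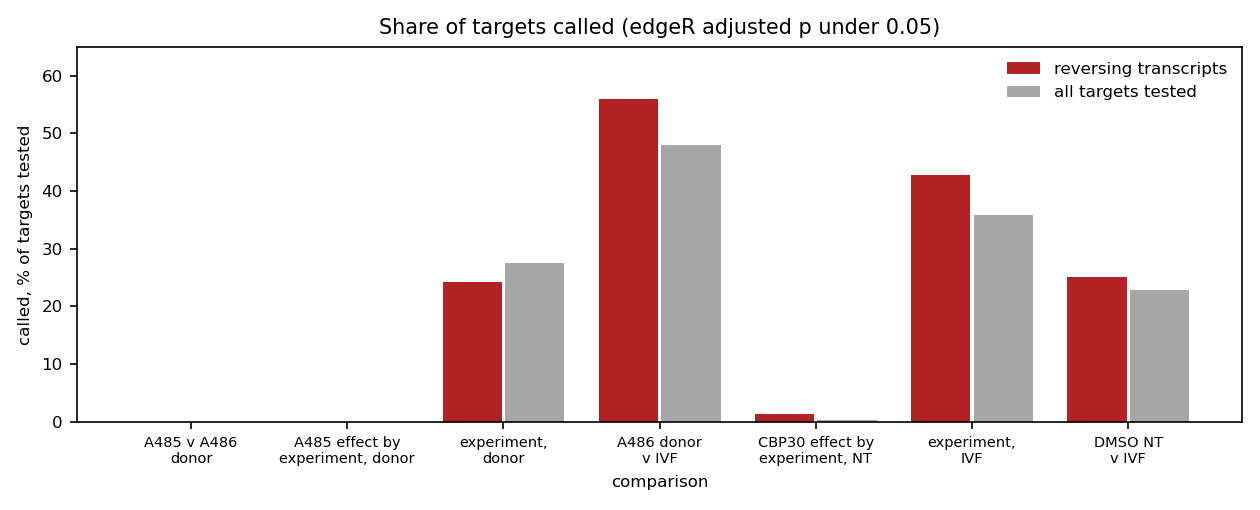
Percent of targets called at an edgeR adjusted p under 0.05 in 7 comparisons that the choice did not use, for the reversing transcripts tested (red) and for all targets tested (grey). Both shares are 0 in the first 2 comparisons, and the reversing transcripts stand at 56.0% against 47.9% for donor endoderm against IVF ectoderm.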

How the data were processed

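Per the labels' protocols, poly(A) RNA was made into directional libraries. The deposited tables give, per target, expected counts estimated by the authors with kallisto 0.48 (per the submitters' processing notes, which also name R 4.3.1 and DESeq2 1.40.2) and TPM; the genome build and annotation are not given in the sources used here. TPM as deposited by the authors were used for levels between targets only. CPM were computed as the estimated count over the library's sum, scaled as the unit's name says, and log2 values with a pseudocount of 0.5. The 200 transcripts, the named ones and the comparison lists were chosen with earlier results of these data known. Named transcripts are the 4 with the largest range in each ordering, the 2 with the smallest adjusted p among those called in each test, and the 2 on each side of the edge.

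Expected counts were rounded and tested with edgeR 4.0.16 (R 4.3.3; TMM, filterByExpr, quasi-likelihood F test, two-sided, Benjamini-Hochberg over all targets tested, threshold 0.05), after a check on simulated counts. That check recovered 3.0% to 93.5% of 200 targets changed 4-fold, depending on the test. No list was tested as a set, and no filter beyond filterByExpr was used. A group of libraries all at 0 was bounded at 3 counts per library, which covers counting error only. Alternatives were DESeq2 and its size factors, other filters, pseudocounts and thresholds, replicate blocks, and each library left out. For A485 against A486 donors and DMSO NT against IVF ectoderm, the main fits left out the experiment. A block on it was an alternative. Experiment numbers pair the libraries in these 2 tests. Deviations of the same number correlated at 0.50 to 0.60 in donor endoderm and 0.33 to 0.54 in DMSO NT and IVF ectoderm. The alternative settings are in the closing section. IVF ectoderm of experiments 2 and 3 of the A485 set and the somite samples were not analysed here, and 4 IVF files tied to no sample were not used. Marker lists by gene name could not be run, because no target matched a gene name.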

Additional observations from a re-analysis of the deposited data

Results flagged for a closer look

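Among the 24 transcripts named for their ranges, 96 combinations of transcript and group of 4 or 5 libraries were examined, and 6 had 1 library far from the rest. Chance gives about 1 in 20. XBmRNA23489 had 0.440 CPM in IVF ectoderm library 4, against 7.45 to 10.2 CPM in the other 3. XBmRNA572 had 2.15 CPM in IVF ectoderm library 1, against 15.4 to 20.5 CPM. XBmRNA2648 had 4.04 CPM in IVF ectoderm library 2, against 2.42 to 2.50 CPM. XBmRNA46486 had 4.01 CPM in A486 NT library 4 of experiment 1, against 0.238 to 0.331 CPM in the other 4. XBmRNA53071 had 11.6 CPM in A486 NT library 5 of experiment 2, against 29.9 to 31.4 CPM. XBmRNA41968 had 0.00 CPM in A486 NT library 1 of experiment 2, against 2.35 to 4.44 CPM.

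The CBP30 effect in NT ectoderm differed between experiments for XBmRNA46350 (edgeR adjusted p = 0.00371) and XBmRNA81531 (edgeR adjusted p = 0.00884). XBmRNA81531 lost its call when 1 library was left out, with a highest adjusted p of 0.0626 over those fits. For 47 of the 200 reversing transcripts the A485 and A486 NT libraries did not overlap in opposite directions in different experiments. That difference was not tested, because the transcripts were chosen by it.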

How the results depend on the processing

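Of the 200 transcripts, TMM library sizes kept 180 among those chosen, pseudocounts of 0.25 and 1 kept 178 and 172, and a minimum of 1 CPM kept 163. A pseudocount of 2 kept 130, a minimum of 5 CPM 132, medians in place of means 131, and a threshold of 1 kept 94. Leaving out 1 NT library kept 158 to 186. Leaving out the library whose tissue field says endoderm kept 181. With all libraries, 39 alternative values of the 24 named ranges moved by more than the spread between libraries, 34 of them under another pseudocount. Leaving out 1 library, the reversing transcripts called numbered 0 to 0 for A485 against A486 donors, 0 to 5 for a donor effect that differs between experiments, 26 to 45 for donor levels between experiments, 77 to 118 for donor against IVF ectoderm, 1 to 5 for a CBP30 effect that differs between experiments (1 without CBP30 library 2 of experiment 3, 5 without CBP30 library 3 of experiment 2, and 4 without DMSO library 1 of experiment 1, 3 of experiment 2 or 4 of experiment 3), 46 to 67 for IVF ectoderm between experiments and 27 to 47 for DMSO NT against IVF ectoderm. Opposite donor differences numbered 16 to 33, against 1.95% and 2.61% of eligible targets in those fits. CBP30 reversals numbered 12 to 40, against 0.962% and 2.02%. IVF spans of at least 3 log2 units numbered 7 to 25, against 0.223% and 1.16%. These 3 counts and the ectoderm-high set were added after seeing the data. Requiring 10 counts in every library gave 29 for donor levels between experiments, 62 for donor against IVF ectoderm and 15 for DMSO NT against IVF ectoderm, with fewer targets tested. DESeq2 gave 1 for the donor effect and 6 for the CBP30 effect that differ between experiments, and no filter on low counts gave 1 for the donor effect. The cause of these last changes was not tested. With the experiment as a replicate block, 0 transcripts were called for A485 against A486 donors and 34 for DMSO NT against IVF ectoderm, and with the library number as a replicate block 94 for donor against IVF ectoderm. The block changed no other count by more than 1.5 times. For these counts of calls under other settings, the share of all targets called is not given here. Whether the reversing transcripts or all targets moved can therefore not be told from them. Depth limits the transcripts near 0, where 1 read sets the value and the pseudocount the fold.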
